A study of Homo sapiens with 5 samples.

Results

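The genes described here are 50 genes that act in mitosis, chosen by name for their part in mitotic entry, the spindle checkpoint, anaphase, kinetochores, spindle motors and cytokinesis. The choice was made with earlier results of these data known. All 50 were found among the 27992 gene rows of the deposited count table and in the deposited TPM table, and all 50 had at least 1 count per 1000000 reads (CPM) in at least 1 library. RNA from U2OS, a human osteosarcoma cell line, was sequenced in 5 libraries. Of these, 4 came from cells carrying pTRIPZ-YFP-ER-E2F1, a doxycycline-inducible construct that fuses the yellow fluorescent protein YFP, a hormone-binding part of the oestrogen receptor and the transcription factor E2F1. A flow sorter split these cells by their fluorescence into fractions called YFP-negative, YFP-low, YFP-medium and, for the brightest, YFP-high. The fifth library was made from the parental U2OS line, which lacks the construct. The labels give the same treatment for all 5 libraries, parental cells included: 500 ng/ml doxycycline for 48 h, then 90 nM 4-hydroxytamoxifen (OHT), the ligand of the receptor part, for a further 20 h, in medium with 8% serum. The sources used here do not give whether the construct line is 1 clone or a pool. Each group has 1 library, so there is no replicate check, no test and no p-value, and every difference below is between libraries.

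Mitosis begins when CDK1 bound to cyclin B is activated, and the duplicated chromosomes then attach through their kinetochores to spindle microtubules. The spindle checkpoint holds back the anaphase-promoting complex until all chromosomes are attached, after which the sisters separate and the cell divides at the spindle midzone. Most of these genes are transcribed in G2 and mitosis through promoter elements called the cell cycle genes homology region (CHR) and the CCAAT box, bound by the DREAM and B-MYB-MuvB complexes and by NF-Y, with FOXM1 joining later, whereas E2F sites are best known from genes of the G1/S transition.

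Gene rows held 70715003 to 76525158 reads per library, and the members held 941 (SPC24 in YFP-high) to 116480 reads (MKI67 in YFP-medium). E2F1, whose reads cannot be parted here into the endogenous gene and the construct, had 86.1 CPM in parental cells, 106.0 in the negative, 163.2 in the low, 361.2 in the medium and 995.5 in the high fraction. Of 8 osteoblast markers, 4 passed the level filter, while COL1A2 was near 0 and BGLAP, IBSP and SP7 were at 0 to 7 reads. The summed osteoblast markers went from 4670 CPM in parental cells and 2250 in YFP-negative to 1550 in YFP-high, mostly through COL1A1 and SPARC, and their part in the results was not tested. Leukocyte markers summed to 3.60 to 5.69 CPM with 1 of 6 past the filter, endothelial markers to 2.21 to 4.84 CPM with 3 of 5, and epithelial markers to 454 to 574 CPM with 5 of 6, nearly all from the keratins KRT8 and KRT18.

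By summed level, the members were lowest in the YFP-negative and parental libraries, higher in YFP-low, highest in YFP-medium and lower again in YFP-high. On the length-corrected TPM scale, their summed level was 8056 in parental cells, 7724 in the negative, 10590 in the low, 11430 in the medium and 8616 in the high fraction, or 0.806%, 0.772%, 1.06%, 1.14% and 0.862% of each library's total. YFP-low and YFP-medium were the high libraries, and YFP-high stood closer to the parental library than to YFP-medium. In RNA from many cells, fewer cells in mitosis and less RNA of these genes per cell cannot be told apart. Among the 4 fractions, 41 of 50 members (82%) had their highest TMM-scaled CPM in YFP-medium, against 14.7% of the 15109 genes analysed. The other members peaked in YFP-low (MAD2L1, CDC20, UBE2C, CENPE, CENPF, KIF20A, ASPM and TOP2A, 16%, against 10.6% of all genes), except CKAP2, the 1 member that peaked in YFP-high, where 38.1% of all genes peaked. None peaked in YFP-negative, where 36.6% of all genes did. With library totals in place of TMM scaling, 16 members peaked in YFP-low, and on the TPM scale 14 did.

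**Figure D1:**
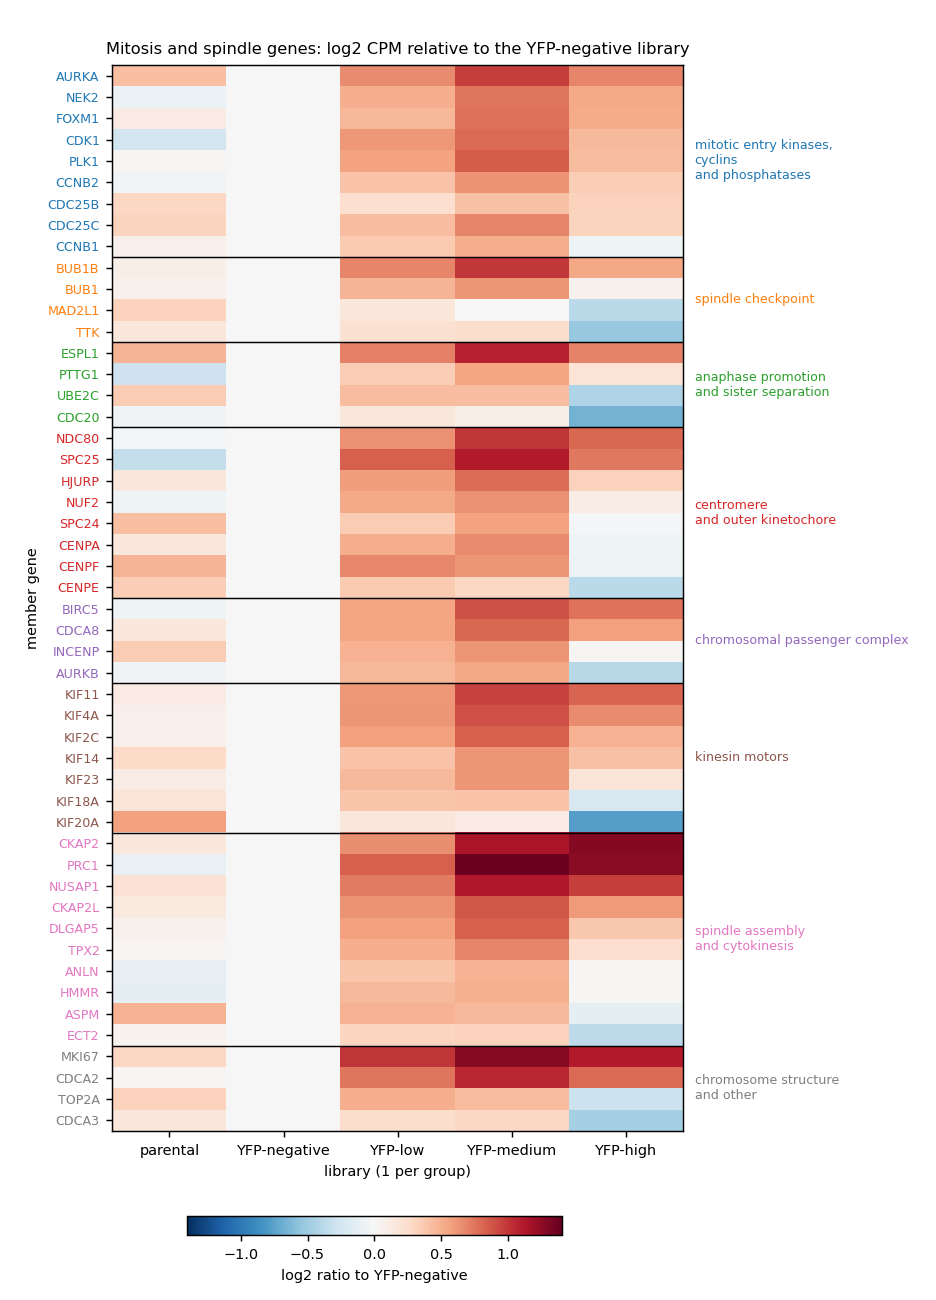
Log2 ratio of TMM-scaled CPM to YFP-negative for each of the 50 members (lines, grouped by role) in the 5 libraries (columns), with colour giving the ratio and YFP-negative at 0. The YFP-medium column holds the highest ratio of the 4 fractions for 41 members, and the YFP-high column holds both higher and lower members.

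The size of these differences was read from log2 ratios of CPM, with 0.5 CPM added to both levels, and from folds without that addition. A gene was called when it passed 2-fold and its exact 95% counting interval excluded no change. The intervals cover counting error only, and PCR copies of 1 molecule are counted as separate reads. For the members they were narrow, with a median ratio of 1.05 between the upper and the lower bound. The comparisons of the YFP-positive fractions with YFP-negative share the YFP-negative library, so their values are given side by side and not counted as separate support.

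In YFP-low the median member stood 0.50 above YFP-negative on the log2 scale, against -0.00 for all genes analysed. No member passed 2-fold, where 2.11% of all genes were called higher and 0.0463% lower, and 16 passed 1.5-fold higher (7.27% of all genes). The interval lay above no change for all 50, against 34% of all genes. MKI67 had the largest log2 ratio, 1.00 when rounded and just under the threshold, and MAD2L1 the smallest, 0.16.

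In YFP-medium the median log2 ratio to YFP-negative was 0.66, against -0.01 for all genes. PRC1, MKI67, CKAP2, NUSAP1, SPC25, ESPL1, CDCA2 and NDC80 passed 2-fold higher, 8 of 50 where 9.76% of all genes were called higher. None was called lower (2.21% of all genes). At 1.5-fold 32 members were higher (19% of all genes) and none lower (11.8%). The interval lay above no change for 49 members (40.2% of all genes), and that of MAD2L1 included it. Scaling by library totals moved the median of all genes by -0.21 and left 2 calls, PRC1 and MKI67. The deposited TPM moved it by -0.11 and left PRC1, MKI67, NUSAP1 and CKAP2. MAD2L1, CDC20 and KIF20A went below 0 with library totals, and MAD2L1 and CDC20 with TPM. The members' median minus that of all genes was 0.67 with TMM, 0.66 with library totals and 0.66 with TPM.

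In YFP-high the median log2 ratio to YFP-negative was 0.32, against -0.04 for all genes. CKAP2, PRC1 and MKI67 passed 2-fold higher, 3 of 50, where 20.5% of all genes were called higher, and none passed 2-fold lower, where 11.3% were called lower. At 1.5-fold 13 members were higher (29.3% of all genes) and 2, KIF20A and CDC20, were lower (25.4%). The intervals lay above no change for 31 members (43.9% of all genes) and below it for 14 (46.2%). Of 50 members, 34 were above 0 with TMM, 29 with TPM, which moved the median of all genes by -0.12, and 26 with library totals, which moved it by -0.26. The 8 members whose direction changed with library totals were ANLN, HMMR, INCENP, BUB1, NUF2, KIF23, PTTG1 and TPX2. The members' median minus that of all genes was 0.36 with TMM, 0.35 with TPM and 0.35 with library totals, and 0.20 against the parental library.

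The step from YFP-medium to YFP-high, which shares no library with the step from YFP-negative to YFP-low, ran the other way. The median member was at -0.42 on the log2 scale, against -0.07 for all genes, and 49 of 50 members had an interval below no change (45.4% of all genes), CKAP2 being the exception. None passed 2-fold lower (1.33% of all genes) or higher (9.25%), while 14 passed 1.5-fold lower (10.9%) and none 1.5-fold higher (17.8%). With TMM, DESeq2 factors, library totals and TPM alike, 49 of 50 members were lower in YFP-high than in YFP-medium. In all, 48 of 50 members had an interval above no change from YFP-negative to YFP-medium and below it from YFP-medium to YFP-high. That pattern was held by 11.4% of all genes, which include genes with fewer reads and wider intervals. Both ratios use the same YFP-medium library, so a shift of that library alone would give this pattern, and they are not separate support. From YFP-low to YFP-medium the median was 0.20 (all genes -0.00), with no member past 2-fold (2.71% of all genes higher, 0.185% lower) or 1.5-fold (9.64% and 3.53%), 37 intervals above no change (36.3%) and 6 below it (34.8%).

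**Figure D2:**
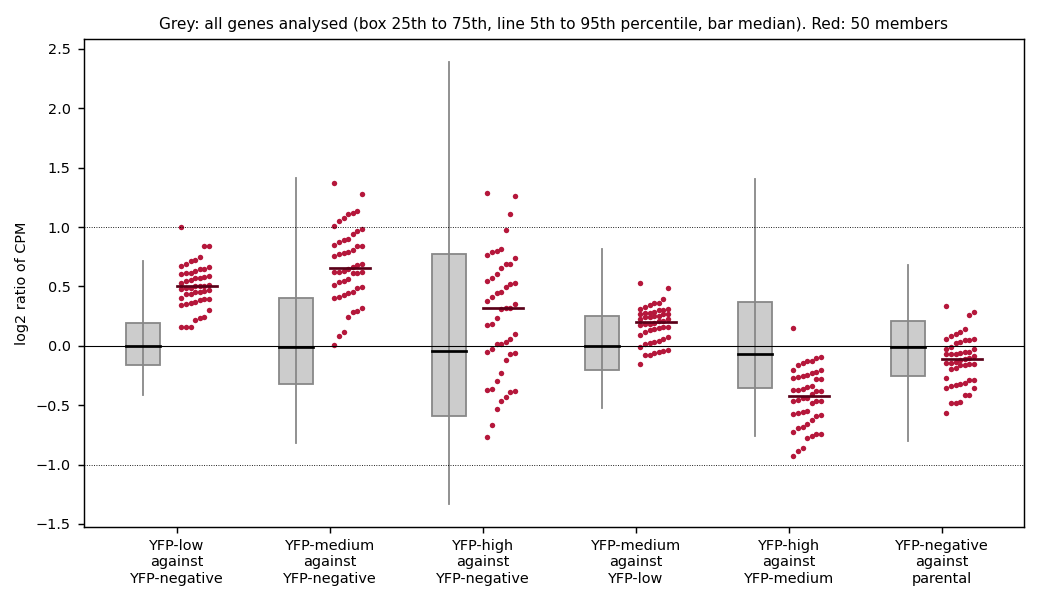
Log2 ratios of CPM for the 50 members (points) in each comparison of 2 libraries, beside the spread of the 15109 genes analysed. The members lie above 0 in YFP-low and YFP-medium against YFP-negative, spread to both sides of 0 in YFP-high, and lie below 0 in YFP-high against YFP-medium apart from CKAP2.

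Promoter sequences are shown for the members at both ends of the YFP-high range, 3 with the highest and 3 with the lowest log2 ratio to YFP-negative among those with a single promoter entry, because these genes moved furthest apart while mostly carrying the same letters. They come from RefSeq on GRCh38.p14. The deposited files name the build hg19, so these coordinates belong to the RefSeq build alone. Each line gives the 250 bases before the gene's start, 5′ to 3′ on the gene's strand, with capitals marking CHR letters, which are TTTGAA with its variants TTCGAA and, more loosely, TTTAAA, and CCAAT letters. Both strands were searched, so that TTCAAA is a reverse CHR, and a reverse CCAAT reads ATTGG. The stretches are CKAP2 at chr13:52455738-52455987 (plus strand), PRC1 at chr15:90994536-90994785 (minus), MKI67 at chr10:128126424-128126673 (minus), KIF20A at chr5:138178862-138179111 (plus), CDC20 at chr1:43358731-43358980 (plus) and CDCA3 at chr12:6851287-6851536 (minus).
CKAP2: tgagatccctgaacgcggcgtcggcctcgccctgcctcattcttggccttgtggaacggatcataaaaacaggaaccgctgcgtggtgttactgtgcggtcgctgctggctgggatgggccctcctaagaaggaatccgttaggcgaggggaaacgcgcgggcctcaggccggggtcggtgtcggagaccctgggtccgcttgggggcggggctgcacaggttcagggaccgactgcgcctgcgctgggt
PRC1: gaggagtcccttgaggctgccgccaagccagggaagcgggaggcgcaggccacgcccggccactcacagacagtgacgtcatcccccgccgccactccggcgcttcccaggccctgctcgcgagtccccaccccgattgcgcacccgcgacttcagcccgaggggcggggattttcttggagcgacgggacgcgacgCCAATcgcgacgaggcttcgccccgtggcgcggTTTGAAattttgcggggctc
MKI67: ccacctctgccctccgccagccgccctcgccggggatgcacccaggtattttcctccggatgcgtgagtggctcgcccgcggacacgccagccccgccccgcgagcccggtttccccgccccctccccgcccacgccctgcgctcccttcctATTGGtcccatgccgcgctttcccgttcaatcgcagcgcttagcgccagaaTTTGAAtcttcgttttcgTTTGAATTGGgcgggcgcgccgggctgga
KIF20A: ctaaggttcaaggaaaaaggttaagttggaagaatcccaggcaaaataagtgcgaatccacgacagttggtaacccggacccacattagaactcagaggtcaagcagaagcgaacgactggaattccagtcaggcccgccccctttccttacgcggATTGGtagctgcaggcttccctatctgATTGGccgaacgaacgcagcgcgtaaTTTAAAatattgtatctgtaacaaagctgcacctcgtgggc
CDC20: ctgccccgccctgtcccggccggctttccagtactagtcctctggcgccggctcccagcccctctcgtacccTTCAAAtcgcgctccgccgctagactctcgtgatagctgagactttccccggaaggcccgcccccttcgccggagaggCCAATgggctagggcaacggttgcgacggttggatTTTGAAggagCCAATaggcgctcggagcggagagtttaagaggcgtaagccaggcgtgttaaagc
CDCA3: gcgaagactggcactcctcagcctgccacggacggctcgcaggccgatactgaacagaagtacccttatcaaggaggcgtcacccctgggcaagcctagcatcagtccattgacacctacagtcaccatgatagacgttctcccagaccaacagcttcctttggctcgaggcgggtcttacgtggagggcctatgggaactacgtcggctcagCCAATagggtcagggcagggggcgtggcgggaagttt
Positions are counted from the start, with -1 the base just before it. PRC1 has CCAAT from -53 and a CHR from -20. MKI67 has CHR letters from -47 and from -29, the second sharing 1 base with a reverse CCAAT from -24, and another reverse CCAAT from -98. KIF20A has only the looser CHR letters, TTTAAA, from -41, and reverse CCAAT letters from -94 and -67. CDC20 has CHR letters from -178, in reverse, and from -65, and CCAAT from -100 and -55. CDCA3 has CCAAT from -37, and its CHR runs across the start, from -3, so that it is not capitalised in the line shown. CKAP2, the member that did not go down in YFP-high, has none of the letters searched. Letters of both kinds stood in genes from each end of the range: PRC1, MKI67, KIF20A, CDC20 and CDCA3 all have CHR and CCAAT letters in the window.

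Of the 50 members, 43 matched 53 RefSeq promoters of 250 bases before to 50 after the start. AURKA, TTK, TPX2, BIRC5, CDCA2, FOXM1 and UBE2C are named only. CHR letters stood in 44 of the 53 (83%), against 25.1% of all 35116 promoters and 18.7% of the promoters of genes analysed. Without the looser TTTAAA the shares were 69.8%, 16.4% and 11.9% in the same order. CCAAT letters stood in 41 (77.4%, against 34.6% of all promoters), and both in 36 (67.9%, against 9.70%). E2F letters (TTTCCCGC, TTTCGCGC, TTTGCCGC or TTTGGCGC, both strands) stood in 4 (7.55%), of CDK1, CENPA and NUSAP1. The share was 3.31% of all promoters and 4.66% of the promoters of genes analysed. Counted by gene, 6.98% of matched members held E2F letters, nearly the same as the 6.48% of genes analysed. The overlapping CDK1 entries hold the same site. In 38 promoters of origin licensing and replication fork genes the order of CHR and E2F letters was the reverse, with 10.5% and 47.4%. CCAAT letters stood in 60.5% of the 38, also above the share of all promoters. In 124 promoters of the other mitosis genes described below, CHR letters stood in 43.5%, CCAAT letters in 50.8%, both in 26.6% and E2F letters in 15.3%. The centres of the matches had their median at -27.5 for CHR and at -77.0 for CCAAT. Among members, the 39 genes with CHR letters had a median log2 ratio of 0.31 in YFP-high against YFP-negative, and the 4 without (AURKB, SPC24, NEK2 and CKAP2) 0.25, with CKAP2 at the top of all members and AURKB below 0. A match of letters is a description, not a binding site, and its absence from this window says nothing about a factor.

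**Figure D3:**
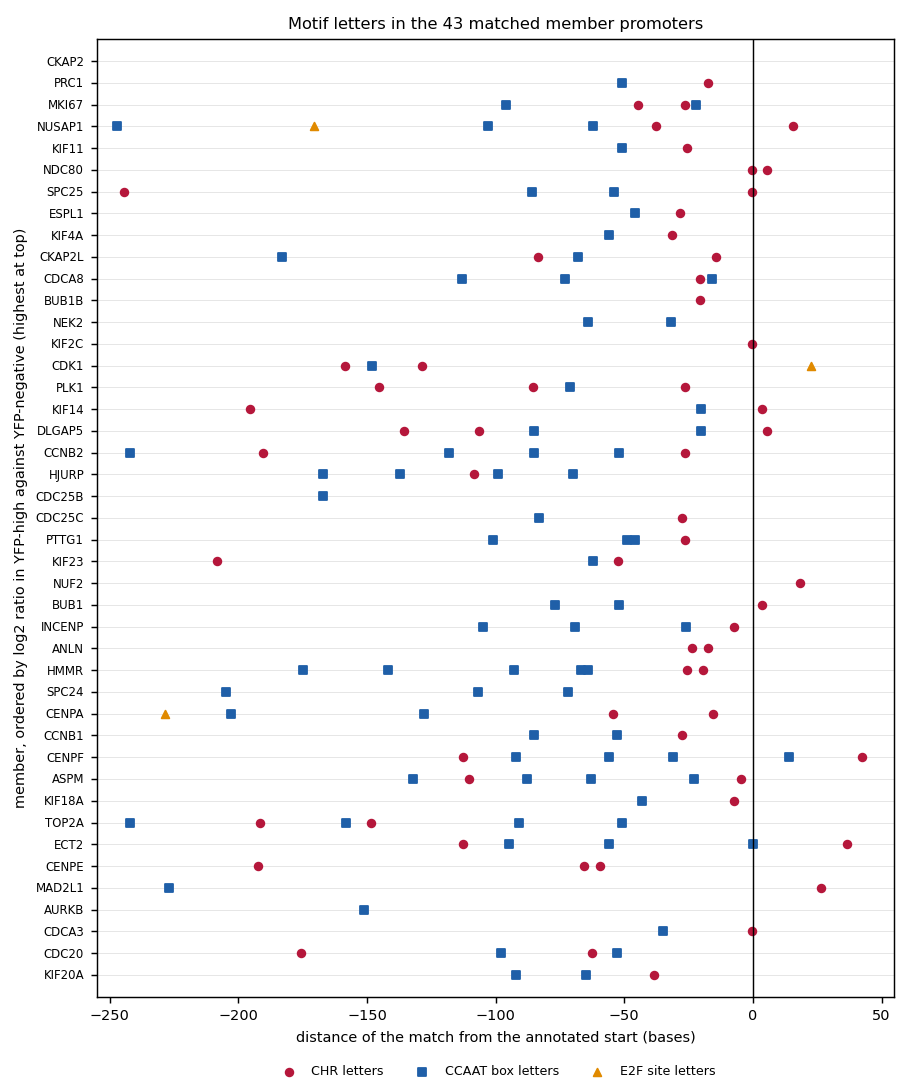
Positions of CHR, CCAAT and E2F letters (points) in the promoter windows of the 43 matched members, as distance from the gene's start in bases, with the entry of lowest coordinate shown for genes with several. CHR letters gather just before the start and CCAAT letters farther upstream, with medians of -27.5 and -77.0 over all entries.

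Mitotic entry was represented by 9 genes, and 8 of them had intervals above YFP-negative in all 3 YFP-positive fractions. CDK1, the kinase that drives entry, had 206 CPM in parental cells, 247 in the negative, 376 in the low, 428 in the medium and 338 in the high fraction. All 3 YFP-positive libraries lay above the parental and YFP-negative libraries, and YFP-high was 1.37-fold YFP-negative (95% counting interval 1.34 to 1.39). CCNB1, its cyclin partner and the entry gene with the highest TPM, had 309.6 CPM in parental cells, 295 in the negative, 379.7 in the low, 420.3 in the medium and 284 in the high fraction. CCNB1 was the exception of the group, with YFP-high the lowest of the 5 libraries, at 0.960 of YFP-negative (0.942 to 0.979). CCNB2, a second B-type cyclin, did not follow it and was at 1.27-fold YFP-negative in YFP-high (1.24 to 1.31).

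AURKA, a centrosomal kinase of spindle assembly, had the highest ratios of the group. Its level was 169 CPM in parental cells, 126 in the negative, 199.9 in the low, 247 in the medium and 204 in the high fraction. YFP-medium was 1.96-fold YFP-negative (1.91 to 2.01) and YFP-high 1.61-fold (1.57 to 1.65), but YFP-negative itself was at 0.748 of the parental library, so that the distance to parental cells was smaller. PLK1, the polo-like kinase of entry and spindle formation, had 141 CPM in parental cells, 139.8 in the negative, 207 in the low, 252 in the medium and 190.1 in the high fraction. FOXM1, the transcription factor of G2 genes, had 391, 360.1, 496, 615 and 516 CPM in the same order, from parental to YFP-high. Both stood above the parental and YFP-negative libraries in every YFP-positive fraction. The phosphatase CDC25B, which activates CDK1, moved least of the entry genes up to YFP-medium, where it was at 1.33-fold YFP-negative, and was at 1.25-fold in YFP-high, with its parental level (181 CPM) near that of YFP-high (185 CPM). CDC25C, its relative, was the member with the lowest mean TPM, 24.2, and 10.7% of its exonic bases overlap the gene FAM53C in GENCODE v29. NEK2, a kinase of centrosome separation, was at 1.69-fold in YFP-medium and 1.45-fold in YFP-high.

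The 4 checkpoint genes divided evenly in YFP-high. BUB1B, the BubR1 subunit that inhibits the anaphase-promoting complex, had 98.4 CPM in parental cells, 93.0 in the negative, 149.9 in the low, 185 in the medium and 136 in the high fraction. In YFP-medium it was 1.98-fold YFP-negative (1.93 to 2.04) and in YFP-high 1.46-fold (1.42 to 1.51), above the parental and YFP-negative libraries throughout. TTK, the MPS1 kinase that starts checkpoint signalling, had 60.4, 53.9, 62.5, 64.0 and 37.2 CPM from parental to YFP-high. Its first 4 libraries lay within a narrow range and YFP-high was the lowest, at 0.690 of YFP-negative (0.656 to 0.725). MAD2L1, the inhibitor assembled at unattached kinetochores, had 90.5, 72.0, 80.3, 72.1 and 55.2 CPM, highest in parental cells and lowest in YFP-high. Its YFP-medium level was the same as in YFP-negative within counting error (fold 1.00, 0.965 to 1.04). BUB1, a scaffold kinase of the checkpoint, came back in YFP-high to 1.04-fold YFP-negative (1.02 to 1.07) from 1.53-fold in YFP-medium, and its log2 ratio in YFP-high is below 0 with library totals.

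The genes of anaphase promotion and sister separation divided in the same way, 2 above and 2 below YFP-negative in YFP-high, of which PTTG1 was below with library totals. CDC20, the activator of the anaphase-promoting complex, had 266 CPM in parental cells, 275 in the negative, 307 in the low, 291 in the medium and 174 in the high fraction. The first 4 libraries differed little and YFP-high was well below them, at 0.631 of YFP-negative (0.617 to 0.645) and 0.596 of YFP-medium (0.582 to 0.610). UBE2C, the ubiquitin-conjugating enzyme of the same complex, had 140.1, 109.7, 149 (YFP-low), 148 and 81.1 CPM from parental to YFP-high. It was level between YFP-low and YFP-medium and then at 0.549 of YFP-medium in YFP-high (0.531 to 0.568). ESPL1, the separase that cuts cohesin, had 151, 108, 177, 228 and 175 CPM, and was past 2-fold in YFP-medium (2.11, 2.05 to 2.16) and 1.62-fold YFP-negative in YFP-high. Its parental level lay between those of YFP-negative and YFP-low. PTTG1, the securin that inhibits separase, was the most abundant member per length, with a mean of 752 TPM, and had 105, 128, 162, 187 and 146 CPM from parental to YFP-high.

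At the centromere and outer kinetochore, all 8 genes were above YFP-negative in YFP-low and YFP-medium, and 4 were above and 4 below it in YFP-high, where the intervals of CENPA and SPC24 included no change. The median log2 ratio in YFP-high was 0.04 with TMM and below 0 with library totals (-0.23) and TPM (-0.10). NDC80, which gives its name to the complex that grips microtubules, had 154 CPM in parental cells, 156 in the negative, 244 in the low, 314 in the medium and 273 in the high fraction. Its partner SPC25 had 53.5, 67.5, 121, 146 and 113 CPM in the same order. Both were past 2-fold in YFP-medium and remained well above the parental and YFP-negative libraries in YFP-high. They were then at 1.75-fold (1.71 to 1.79) and 1.67-fold YFP-negative (1.61 to 1.73). The other subunits did not: NUF2 was at 1.07-fold in YFP-high (1.03 to 1.11) and SPC24 at 0.980 (0.900 to 1.07). As shares of the summed TPM of the 4 subunits, NDC80 went from 34.7% in YFP-negative to 41.8% in YFP-high and SPC25 from 27.5% to 31.7%. NUF2 went from 17.4% to 12.8% and SPC24 from 20.4% to 13.6%. In the parental library SPC24 made up 27.1% and SPC25 21.8%, so their shares already differed between the parental and YFP-negative libraries. The share of SPC25 was 31.9% in YFP-low and in YFP-medium, level with YFP-high.

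CENPF, a large outer kinetochore protein, had 611 CPM in parental cells, 439.7 in the negative, 702 in the low, 676 in the medium and 418 in the high fraction. The parental library was nearly as high as YFP-low and YFP-medium, and YFP-high was the lowest of the 5. CENPE, the kinesin that moves chromosomes to the spindle equator, was at 0.771 of YFP-negative in YFP-high (0.748 to 0.795). CENPA, the histone variant that marks centromeres, was in YFP-medium at 1.59-fold YFP-negative and in YFP-high at 0.962, with an interval (0.923 to 1.00) that reached no change. HJURP, the chaperone that deposits CENPA, was at 1.72-fold and, in YFP-high, at 1.25-fold (1.21 to 1.29).

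The 4 subunits of the chromosomal passenger complex, which corrects wrong attachments and later directs cytokinesis, were all above YFP-negative in YFP-low and YFP-medium. Their log2 ratios to YFP-negative were close in YFP-low, from 0.47 (AURKB) to 0.56 (CDCA8). They had begun to part in YFP-medium, from 0.54 (AURKB) to 0.89 (BIRC5), and stood further apart in YFP-high. AURKB, the kinase of the complex, had 41.9 CPM in parental cells, 43.3 in the negative, 60.1 in the low, 63.2 in the medium and 33.0 in the high fraction. YFP-high was the lowest library, and the ratio of YFP-high to YFP-medium, 0.522 (0.495 to 0.550), was the lowest of all 50 members. BIRC5, the survivin subunit, had 159, 165, 241, 307 and 280.5 CPM from parental to YFP-high, and remained at 1.70-fold YFP-negative in YFP-high (1.66 to 1.74). CDCA8, the borealin subunit, was at 1.49-fold YFP-negative in YFP-high (1.45 to 1.54), and the scaffold INCENP at 1.02-fold, with an interval that included no change (0.993 to 1.05). By TPM, AURKB made up 24.8% of the complex's transcripts in YFP-negative and 14.5% in YFP-high, and BIRC5 32.3% and 42.4%.

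**Figure D4:**
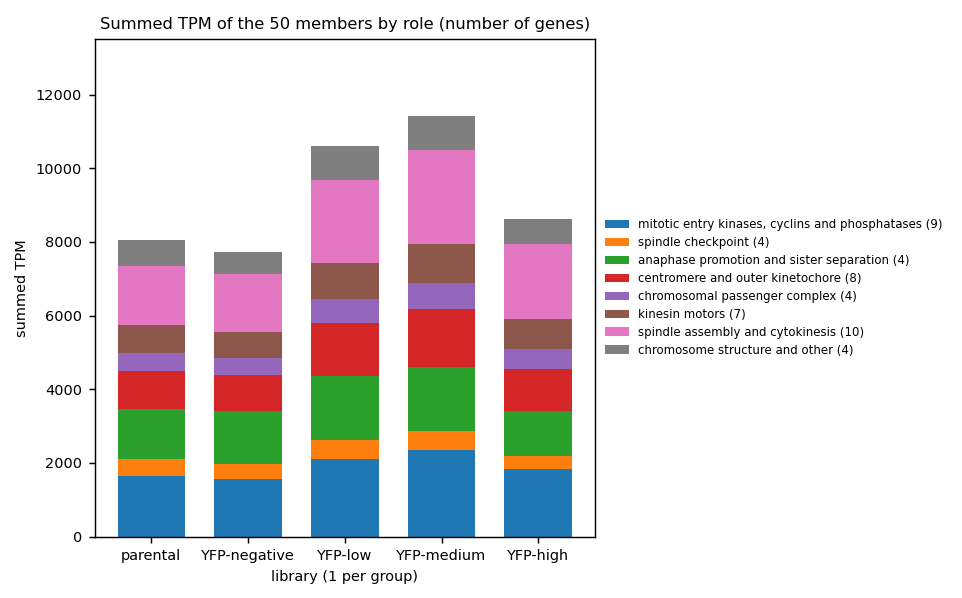
Summed TPM of the 50 members in the 5 libraries (stacked bars), with a colour for each of the 8 roles. Entry genes, kinetochore genes, passenger genes, kinesins and spindle genes peak in YFP-medium, while the summed checkpoint genes are nearly level in YFP-low (512) and YFP-medium (508). Checkpoint genes (357) and anaphase genes (1210) are lowest in YFP-high.

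Of 7 kinesin motors, all were above YFP-negative in YFP-low and YFP-medium (KIF20A in YFP-medium not with library totals), and 5 were above and 2 below it in YFP-high. KIF11, the Eg5 motor that pushes spindle poles apart, had 244 CPM in parental cells, 226 in the negative, 345 in the low, 434 in the medium and 397 in the high fraction. Its YFP-high library was close to YFP-medium and 1.76-fold YFP-negative (1.73 to 1.79). KIF20A, a motor of the central spindle needed for cytokinesis, had 141, 94.8, 106, 103 and 55.3 CPM from parental to YFP-high. It was highest in parental cells and lowest in YFP-high, at 0.584 of YFP-negative (0.561 to 0.608), the lowest ratio of any member in that comparison. KIF20A also had the lowest ratio of YFP-negative to parental, 0.673 (0.654 to 0.692). KIF18A, which dampens chromosome movement, was the other motor below YFP-negative, at 0.852 (0.815 to 0.891). KIF4A, a chromosome-bound motor that also acts at the midzone, was in YFP-medium at 1.87-fold YFP-negative and in YFP-high at 1.58-fold. KIF2C, the MCAK microtubule depolymerase, was at 1.79-fold and 1.41-fold. KIF14, a motor of cytokinesis, stood at 1.33-fold in YFP-high and KIF23, a subunit of centralspindlin, at 1.13-fold, which goes below no change with library totals.

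Spindle assembly and cytokinesis, with 10 genes, held the 2 highest ratios of YFP-high to YFP-negative, those of CKAP2 and PRC1. PRC1, which bundles antiparallel microtubules at the midzone, had 197 CPM in parental cells, 212 in the negative, 379.1 in the low, 547 in the medium and 509 in the high fraction. The 3 YFP-positive libraries were far above the parental and YFP-negative libraries. YFP-medium was at 2.59-fold YFP-negative (2.54 to 2.63) and YFP-high at 2.40-fold (2.36 to 2.45), the latter under 2-fold with library totals. In GENCODE v29, 65.2% of PRC1's exonic bases overlap PRC1-AS1 and AC068831.7, and the sources used here do not give whether counting used strand, so their reads cannot be told apart. CKAP2, a microtubule-stabilising protein, had 143, 129, 202, 284 and 316 CPM from parental to YFP-high. It was higher at every step of YFP, with YFP-high 1.11-fold YFP-medium (1.09 to 1.13) and 2.45-fold YFP-negative (2.39 to 2.51), a call that held with library totals and TPM. Its relative CKAP2L was in YFP-medium at 1.84-fold YFP-negative and in YFP-high at 1.52-fold, lower in YFP-high than in YFP-medium as most members were.

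NUSAP1, a microtubule-bundling protein near chromosomes, had 161, 141, 233, 306 and 276 CPM from parental to YFP-high and was past 2-fold in YFP-medium (2.18, 2.13 to 2.23). Of its exonic bases, 72.8% overlap AC087721.2, with the same limit on strand. TPX2, which activates AURKA on the spindle, had 432, 424, 601, 682 and 497 CPM from parental to YFP-high. DLGAP5, a spindle protein also known as HURP, was in YFP-medium at 1.79-fold YFP-negative and in YFP-high at 1.30-fold. With TMM, HMMR, an adaptor of spindle poles, and ANLN, the anillin of the contractile ring, were back at YFP-negative levels in YFP-high. Their folds were 1.01 (0.968 to 1.05) and 1.01 (0.998 to 1.02). Both were lower with the other scalings, at a log2 ratio of -0.26 with library totals and -0.11 with TPM. ANLN had the highest mean TPM of the group, 408. ECT2, the exchange factor that activates RHOA at the cell equator, had 155, 149, 184, 186 and 116 CPM and was at 0.777 of YFP-negative in YFP-high (0.755 to 0.800). ASPM, a spindle pole protein, had 201, 144 in YFP-negative, 202, 197 and 132 CPM, with the parental library level with YFP-low.

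MKI67, the Ki-67 protein that coats mitotic chromosomes and marks proliferating cells, had 865 CPM in parental cells, 709 in the negative, 1416 in the low, 1719 in the medium and 1533 in the high fraction. All 3 YFP-positive libraries stood far above both others, with YFP-medium at 2.42-fold YFP-negative (2.40 to 2.45) and YFP-high at 2.16-fold (2.14 to 2.18). The call in YFP-high was lost with library totals and with TPM. TOP2A, the topoisomerase that untangles sister chromosomes, had 970.5, 775, 1099.8, 1056 and 630.2 CPM from parental to YFP-high. YFP-high was its lowest library, at 0.813 of YFP-negative (0.803 to 0.823), so these proliferation markers stood on opposite sides of YFP-negative in YFP-high. CDCA2, which targets phosphatase PP1 to chromosomes, was in YFP-medium at 2.08-fold YFP-negative (2.02 to 2.14) and in YFP-high at 1.73-fold. CDCA3, a factor in the breakdown of the mitotic inhibitor WEE1, had 47.2, 42.3, 50.1, 52.1 and 30.5 CPM, lowest in YFP-high at 0.720 of YFP-negative (0.681 to 0.761).

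Members that were further up at the first step tended to be less far down at the last. Over the 50 members, the log2 ratio of YFP-low to YFP-negative and that of YFP-high to YFP-medium, which share no library, had a Pearson r of 0.507 and a Spearman rho of 0.516, and over the 15109 genes analysed 0.209 and 0.278. These are correlations across genes, which share the 4 libraries and are not independent replicates. PRC1, MKI67 and CKAP2 lay at 1 end of this spread and KIF20A, CDC20, TTK and CDCA3 at the other.

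**Figure D5:**
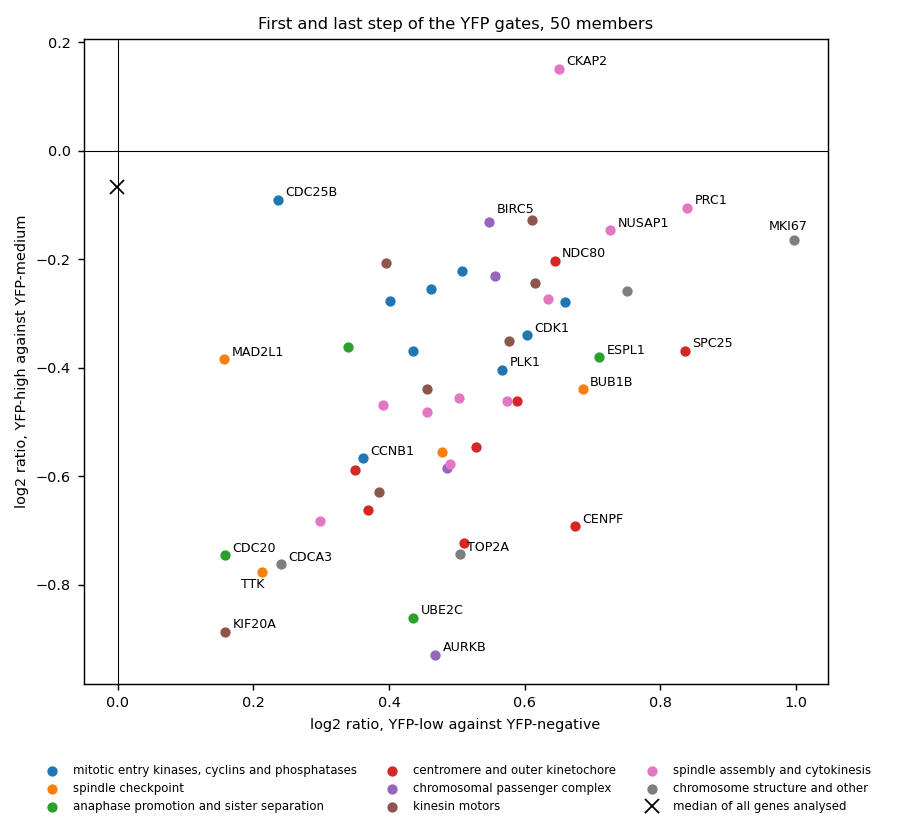
Log2 ratio of YFP-low to YFP-negative (x axis) against log2 ratio of YFP-high to YFP-medium (y axis) for the 50 members, coloured by role, with some members named and the median of all genes analysed as a cross. All points lie right of 0 and 49 lie below 0, with AURKB lowest at -0.93 and CKAP2 alone above at 0.15.

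Other genes of mitosis were read from 9 lists with 107 analysed genes. As a whole they had a median log2 ratio to YFP-negative of 0.35 at low, 0.55 at medium and 0.27 at high YFP. For YFP-high against YFP-medium it was -0.25. The YFP-high median fell to 0.14 with TPM and to 0.002 with library totals, where that of all genes was -0.30. In YFP-high, 11 of 107 passed 2-fold higher, where 20.5% of all genes did, and none passed 2-fold lower (11.3% of all genes). With library totals 6 passed 2-fold higher (NCAPG, CDCA5, GTSE1, CCNF and STIL did not) and 2, NCAPH and ANAPC7, lower. With TPM 8 were higher (NCAPG, GTSE1 and CCNF were not) and NCAPH lower. YFP-medium was the highest fraction for 70 of the 107 (65.4%, against 14.7% of all genes) and YFP-high for 20 (18.7%, against 38.1%). Condensin, which compacts chromosomes, had a median of 0.76 in YFP-medium and 0.49 in YFP-high, with NCAPG past 2-fold (101, 171, 221 and 208 CPM from YFP-negative to YFP-high) and its partner NCAPH at 0.540 of YFP-negative (142 and 76.5 CPM). Cohesin and its regulators had 0.72 and 0.80, but most of this list did not keep rising. With TMM, YFP-high lay under YFP-medium for 7 of its 11 genes and over it for 4. The median of that direct log2 ratio was -0.19, and it stayed below 0 with each scaling. PDS5A, a cohesin regulator, had 326, 440.5, 676 and 913 CPM from YFP-negative to YFP-high. CDCA5, the sororin that protects cohesion, had 128, 208, 278 and 284 CPM. Both were past 2-fold in YFP-high against YFP-negative. PDS5A was highest in YFP-high, whereas the order of YFP-medium and YFP-high for CDCA5 changed with the scaling, at a log2 ratio of 0.03 with TMM and -0.02 with library totals.

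The inner kinetochore list had medians of 0.54 in YFP-medium and 0.27 in YFP-high, with CENPW and ZWINT furthest from YFP-negative in YFP-high, at 1.93-fold and 1.91-fold. Among other checkpoint genes, whose YFP-high median of 0.05 goes below 0 with library totals and TPM, MAD2L2 passed 2-fold (63.5 CPM in YFP-negative, 160.0 in YFP-high) and ZWILCH, of the complex that recruits dynein to kinetochores, was at 1.47-fold. MAD2L2, a relative of MAD2L1, is also a subunit of DNA polymerase zeta. Of other spindle genes, KIF22, a chromosome-bound motor, was at 1.69-fold, and KIFC1, a minus-end motor, passed 2-fold from few reads (1.23 to 15.1 CPM) and lies in the major histocompatibility region, so that its value is uncertain. In cytokinesis CEP55, the abscission factor, had 189, 336, 459.9 and 487 CPM from YFP-negative to YFP-high, and CHMP4B, which cuts the bridge, was at 1.88-fold.

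Among other entry regulators CDC25A, the phosphatase that also drives S phase entry, differed most from CDC25B and CDC25C, with 71.4, 98.1, 180.5 and 379.5 CPM from YFP-negative to YFP-high, a 5.32-fold ratio (5.17 to 5.47). GTSE1 and CCNF, the F-box protein cyclin F, were at 2.07-fold and 2.01-fold YFP-negative in YFP-high. The centriole genes CCP110 and STIL, at 2.62-fold and 2.35-fold, were lower in YFP-high than in YFP-medium, as most members were. The list of the anaphase-promoting complex stayed at a median of 0.02 in YFP-medium and 0.00 in YFP-high, with its elongating enzyme UBE2S furthest up (348, 551, 734 and 697 CPM from YFP-negative to YFP-high) and its subunit ANAPC7 furthest down, at 0.560 of YFP-negative. The sign of that small median depended on the scaling. UBE2C, which starts the ubiquitin chains, and UBE2S, which extends them, stood in YFP-high at 0.739 of YFP-negative and at 2.00-fold.

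The YFP-negative and parental libraries, which were given the same treatment, also differed. The median member was at -0.12 in YFP-negative against parental on the log2 scale (all genes -0.01), with 35 intervals below no change (38.7% of all genes) and 10 above it (36%). None passed 2-fold in either direction (2.93% of all genes lower, 2.15% higher) or 1.5-fold (9.02% and 6.61%). KIF20A, ESPL1, ASPM, CENPF, AURKA and SPC24 were lowest relative to parental cells, at log2 ratios of -0.57 to -0.42, and SPC25, PTTG1 and CDK1 highest, at 0.33, 0.28 and 0.26. With the parental library as baseline, the calls in YFP-high were PRC1, SPC25 and CKAP2 higher and KIF20A lower, so MKI67 was past 2-fold only against YFP-negative.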

How the data were processed

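The authors deposited raw read counts per gene name and, in a second table, TPM values that they scaled to a sum of 1000000 per library. Per the submitters' processing notes, the genome build was hg19 and the tools included HTSeq 0.6.0, HISAT2 2.0.3, Trimmomatic 0.36, bcl2fastq and CASAVA 1.8.2. The sources used here do not give the annotation, the strand setting or the tool behind the TPM. Rows naming no gene were left out: gene rows held 75.7% to 77.7% of counted reads (70715003 to 76525158 per library), and the row with no gene name at most 0.00073%.

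Counts were scaled with TMM factors of 0.904 to 1.09 (edgeR 4.0.16, R 4.3.3). A minimum of 1 CPM in 1 or more libraries left 15109 genes. A pseudocount of 0.5 CPM went into log2 ratios, which therefore understate changes of low genes. Folds have exact 95% Clopper-Pearson counting intervals from the share of 1 library in the summed reads of the pair, and calls needed 2-fold with an interval excluding no change, 1.5-fold being a second rule. The script was tested on simulated data. With 1 library per group no test was made. Python 3.11.15, pandas 2.3.3 and scipy 1.17.1 were used, and the alternatives included DESeq2 1.42.0 size factors. Overlaps of exons came from GENCODE v29 and promoters from RefSeq (GRCh38.p14), both for gene relations and letters only.

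Any member may be named. Of other lists, the genes past 2-fold in YFP-high against YFP-negative and the 2 largest log2 ratios per list are named. MYBL2 and CDKN1A are named outside this rule, chosen after their values were seen. The members and lists were chosen with earlier results of these data known. Several genes of the other lists were read through older symbols, such as WAPL through WAPAL.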

Additional observations from a re-analysis of the deposited data

How the results depend on the processing

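The alternatives were DESeq2 size factors, library totals, TPM, a pseudocount of 2 CPM, a level filter of 5 CPM or none, a 1.5-fold rule and the parental library as baseline. Of 158 summary values recomputed, 132 stayed close to the values reported and 26 moved. No median changed sign, while counts and shares have no sign to change. All members pass each level filter, and the 1.5-fold rule leaves medians as they are, so many of the 132 could not move. With library totals, the members' median log2 ratio to YFP-negative was 0.049 in YFP-high, 0.44 in YFP-medium and 0.41 in YFP-low, that of YFP-medium to YFP-low 0.079, of YFP-high to YFP-medium -0.47 and of YFP-negative to parental -0.080. The number called higher was then 2 in YFP-medium and 1 in YFP-high (CKAP2), 1 was called lower in YFP-high (KIF20A), and 16 members peaked in YFP-low. With TPM, the medians were 0.54 in YFP-medium, 0.19 in YFP-high and 0.11 for YFP-medium against YFP-low, 4 were called higher in YFP-medium and 14 peaked in YFP-low. Against parental cells the medians were 0.42 in YFP-low and 0.16 in YFP-high, with 1 member called higher in YFP-low, 5 in YFP-medium, and 1 called lower in YFP-high. At 1.5-fold, 13 were higher in YFP-high, 32 in YFP-medium and 16 in YFP-low, 2 were lower in YFP-high, and 14 were lower in YFP-high than in YFP-medium. CHR letters in the bases before the start alone stood in 67.9% of member promoters. No paired analysis was possible because each group has 1 library, so leaving out a replicate does not apply either. Depth does not limit the members' ratios, whose widest interval (SPC24) has a ratio of 1.19 between its bounds, but 1 library per group leaves the spread between cultures unmeasured.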

Other observations

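Genes of DNA replication act before the members in the cell cycle. Origin licensing genes had a median log2 ratio to YFP-negative of 0.21 in YFP-medium and 0.42 in YFP-high, and of -0.03 for YFP-high against YFP-medium, the first and last changing sign with the scaling. Replication fork genes had 0.36, 0.28 and -0.12. RRM2, the small subunit of ribonucleotide reductase, had 966 CPM in the negative, 2476 in the low, 3809 in the medium and 3780.4 in the high fraction. POLE, the catalytic subunit of DNA polymerase epsilon, had 164, 238, 435 and 585 CPM in the same order. ORC1 and MCM5, both needed to license origins, were past 2-fold lower in YFP-high, at 9.56 against 29.4 CPM and at 61.1 against 156 CPM.

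A list of 14 regulators of the cell cycle and of such promoters, E2F1 included, differed among themselves, and only some are named here. Their median log2 ratio in YFP-high against YFP-negative was 0.58. Of the 14, 3 were called higher (20.5% of all genes) and 1 lower (11.3%). Whether they act on the members' promoters in these cells was not tested. MYBL2, which encodes B-MYB, had 449 CPM in the parental library, 345 in the negative, 494 in the low, 651 in the medium and 607 in the high fraction. LIN54, the MuvB subunit that contacts CHR letters, had 55.6, 68.1, 156, 291 and 306 CPM, and NFYB, a subunit of the CCAAT-binding factor, 18.6, 20.5, 32.6, 62.9 and 86.2 CPM. LIN52, another MuvB subunit, went the other way, with 27.4, 18.3, 15.3, 13.8 and 8.07 CPM. CDKN1A, which encodes the CDK inhibitor p21, had 185, 299, 379, 418 and 381 CPM.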
